A study of Lumnitzera littorea with 6 samples.

Results

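In leaves of *Lumnitzera littorea* seedlings, 143 of 26139 gene models were close to silent in fresh water and clearly transcribed in every library under salt stress. They are called the switched-on genes here. A gene model belongs to them when its mean was under 1 CPM (counts relative to library size, scaled by TMM, which allows for libraries of different composition) over the control libraries and when it reached at least 5 CPM in each salt stress library. These levels chose the genes, so the contrast between salt stress and control is given for them as a description and was not tested. The rule was applied to the 18073 gene models with enough counts to be tested, so all 143 are among these.

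*L. littorea* is a mangrove tree. Seedlings raised from seed for a year were treated with 400 mM NaCl for 3 days (salt stress, 3 libraries) or with fresh water (CK, 3 libraries), and leaf RNA was sequenced. All plants came from seed collected at a single bay, and both groups were grown in the same garden before the treatment. That the libraries are different seedlings is the most direct reading of the methods, which take leaf RNA plant by plant. The number of replicates is stated for the treated group alone. Beyond counting noise, the libraries of a group differed little (edgeR common coefficient of variation, SD over mean, 3.6%). Whether each library is a separate plant could not be checked. Neither gene functions nor leaf marker genes are paired with these gene model names in the sources used here, so the labelled tissue could not be checked against markers.

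Salt reaches a leaf as a shortage of water and as an excess of sodium and chloride. Plants meet it with osmolytes, ion transporters and protective proteins, many of them under the control of the hormone abscisic acid. In *Arabidopsis*, late embryogenesis abundant proteins such as the dehydrins are known for genes that are hardly transcribed in watered leaves and strongly transcribed under salt or drought. Which proteins the switched-on genes encode is not known from the sources used here.

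The libraries held between 16273192 and 19456211 counts. Between 0.0483 and 0.0645 CPM corresponded to 1 count, so that a CK mean just under 1 CPM stands for 57 counts over the 3 CK libraries and a lower one for fewer. CPM values are not divided by gene length, which is not known here. A long and a short gene with equal CPM therefore differ in transcript number, and the order of levels among the genes includes their lengths. In whole leaves, more cells with a transcript and more transcript per cell cannot be told apart.

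As a group, the switched-on genes held a small share of the leaf transcriptome. Their CPM summed to 1718, 1704 and 1693 in salt stress replicates 1, 2 and 3, against 55.7, 60.9 and 60.0 in CK replicates 1, 2 and 3. They took 0.161%, 0.161% and 0.158% of all counts in the salt stress libraries, against 0.00591%, 0.00648% and 0.00639% in the CK libraries. The 3 libraries of each group lay close together, and the sums of the groups were far apart. All 143 genes were past the thresholds used below for other genes (in edgeR, an adjusted p under 0.05 and a log2 fold change beyond 1 in either direction), as were 12.1% of all tested genes in the higher direction and 19.3% in either direction. The rule fixes that count, and nothing is read from it.

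**Figure D1:**
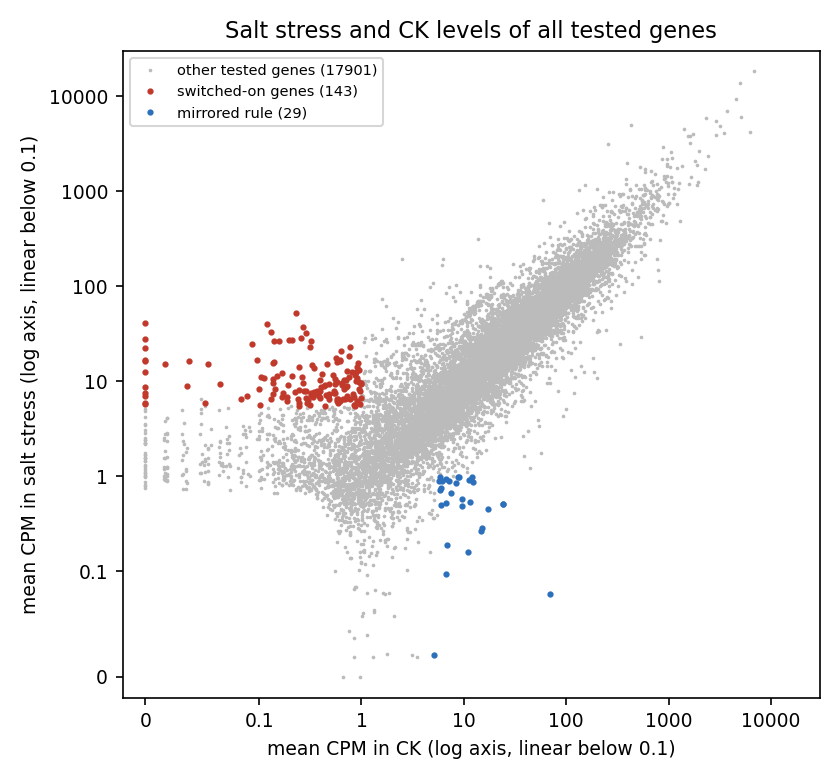
Mean CPM in salt stress (vertical) against mean CPM in CK (horizontal) for the 18073 tested gene models, both on log axes that are linear below 0.1. The 143 switched-on genes fill the upper left corner, and the 29 genes of the mirrored rule lie at the lower right.

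The level reached was modest for most of the genes. The mean over the salt stress libraries was between 5.45 and 52.5 CPM with a median of 9.18 CPM, against a median of 22.8 CPM for all tested genes under salt stress. Of the 143 genes, 59 reached a mean of at least 10 CPM, 18 at least 20 CPM and 2 at least 40 CPM. Among all tested genes ranked by salt stress level, the switched-on genes began at the 21.1 percentile and ended at the 73.1 percentile. None of them thus joined the most abundant transcripts of the salt-treated leaf.

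The deposited names consist of evm.model and 2 numbers, read here as a scaffold and the order of the gene models along it, and genes are given by these numbers. The highest level was reached by gene model 359 of scaffold 40. Its counts were 996, 821 and 796 in salt stress and 3, 6 and 4 in CK. These are 52.5 ± 2.23 CPM in salt stress and 0.231 ± 0.103 CPM in CK (SD, n = 3 each). The ratio of its summed, scaled counts was 234 (exact 95% interval 136 to 439, which like all such intervals here covers counting error only).

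Next came gene model 60 of scaffold 64321, with counts of 748, 636 and 654 in salt stress and of 0 in each CK library. Scaled, its salt stress values were 40.9, 41.0 and 41.1 CPM, the closest agreement between libraries of any switched-on gene. Against a floor of 3 counts in each CK library it was at least 262-fold higher in salt stress. For gene model 316 of scaffold 64481 the counts were 729, 594 and 654 in salt stress and 1, 2 and 4 in CK, a ratio of 328 (exact 95% interval 159 to 818). The pair had much the same salt stress level, and only the first was without a count in CK.

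A further 7 genes complete the 10 with the highest level. Gene model 70 of scaffold 88 had 37.1 ± 1.25 CPM in salt stress and 0.270 ± 0.143 CPM in CK (SD, n = 3 each). Gene model 174 of scaffold 93 had 32.8 ± 2.85 CPM in salt stress and 0.131 ± 0.122 CPM in CK (SD, n = 3 each). Gene model 1251 of scaffold 3 followed with 31.8 ± 2.22 CPM in salt stress and 0.285 ± 0.161 CPM in CK (SD, n = 3 each). The first of these 3 was higher than the others in every salt stress library, and the values of the others overlapped.

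The remaining 4 lay within a narrow band. Gene model 357 of scaffold 12 had 28.2 ± 0.463 CPM in salt stress and 0.254 ± 0.145 CPM in CK (SD, n = 3 each). Gene model 410 of scaffold 9, with 505, 457 and 412 counts in salt stress and 0 counts in every CK library, reached 27.7 ± 1.78 CPM in salt stress (SD, n = 3), at least 177-fold above the floor. Gene model 2 of scaffold 64 had 27.1 ± 1.35 CPM in salt stress and 0.195 ± 0.0811 CPM in CK (SD, n = 3 each). Gene model 675 of scaffold 27 had 27.0 ± 1.45 CPM in salt stress and 0.207 ± 0.0965 CPM in CK (SD, n = 3 each). These 4 genes overlapped in their salt stress values and did not differ beyond their spread.

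**Figure D2:**
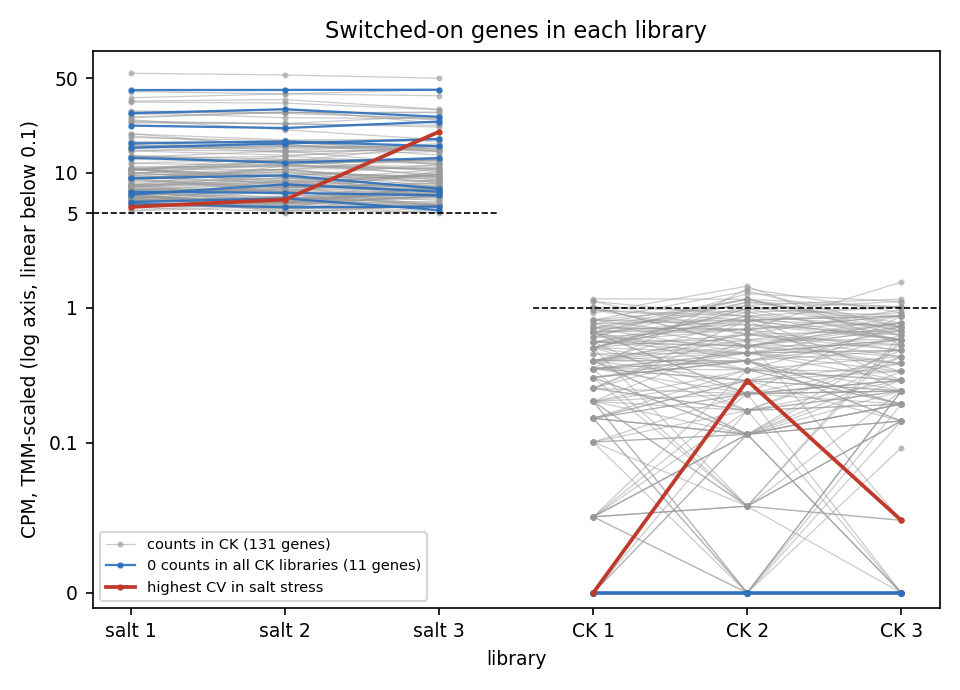
CPM of each switched-on gene in the 3 salt stress and the 3 CK libraries (log axis, linear below 0.1), with lines joining the values of a gene within a group and dashed lines at the limits of 5 and 1 CPM. Blue marks the 11 genes with 0 counts in every CK library, and red marks gene model 21 of scaffold 95, whose salt stress values are 5.58, 6.32 and 20.1 CPM.

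How silent the genes were in CK differed widely. Over the 3 CK libraries together, 11 genes had 0 counts, 5 had 1 to 3 counts, 21 had 4 to 9, 53 had 10 to 29 and 53 had 30 or more. At least 1 CK library was at 0 for 27 of the genes. The mean CK level had a median of 0.343 CPM, and 20 genes reached 1 CPM in at least 1 CK library while their mean stayed below it. Near silent thus covers both genes without a detected transcript and genes with a low but detected one.

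The 11 genes at 0 in CK ranged between 5.68 and 41.0 CPM in salt stress, and lay between at least 36.3-fold and at least 262-fold above the floor. After gene model 60 of scaffold 64321 and gene model 410 of scaffold 9, the largest bounds were those of gene model 17 of scaffold 64407, gene model 765 of scaffold 3 and gene model 186 of scaffold 99. Gene model 17 of scaffold 64407 had 408, 332 and 380 counts in salt stress, none in CK, and was at least 144-fold higher. Gene model 765 of scaffold 3 had 280, 255 and 282 counts in salt stress and was at least 105-fold higher, and gene model 186 of scaffold 99 had 301, 264 and 250 and was at least 105-fold higher. A count of 0 does not show that a gene was off. It allows a level of up to 0.145 to 0.173 CPM, depending on the CK library.

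For the 132 genes with counts in CK, the ratio of salt stress to CK had a median of 22.2 and ranged between 5.90 and 878. Its lower confidence bound was above 10 for 100 of them, and 22 genes had a ratio of at least 100. The highest ratio belonged to gene model 196 of scaffold 64487, with 289, 252 and 214 counts in salt stress and 1, 0 and 0 counts in CK. A single count sets its denominator, and the exact 95% interval of 157 to 34710 is accordingly wide. The limits of the rule alone require a ratio above 5, so that a ratio near 6 is close to the lowest the rule admits.

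Between the extremes lay genes with a few stray counts in CK, named here after their values were seen. Gene model 311 of scaffold 42 had 0, 2 and 0 counts in CK and a ratio of 469 (exact 95% interval 129 to 3880). Gene model 54 of scaffold 44, with 3 counts over the CK libraries, had a ratio of 288 (exact 95% interval 98.1 to 1399), and gene model 76 of scaffold 84 one of 254 (exact 95% interval 69.9 to 2104). Gene model 29 of scaffold 13, with 1 count in each CK library, had a ratio of 115 (exact 95% interval 38.9 to 559). With so few counts the intervals of these genes overlapped widely, and the order of their ratios cannot be read.

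At the low end stood the genes with the most counts in CK. Gene model 6 of scaffold 9 had 119, 99 and 114 counts in salt stress and 23, 20 and 14 counts in CK, a ratio of 6.77 (exact 95% interval 5.10 to 9.13). Gene model 451 of scaffold 12 had 112, 89 and 83 counts in salt stress and 15, 20 and 21 counts in CK, the lowest ratio of all, 5.90 (exact 95% interval 4.41 to 8.0). Gene model 977 of scaffold 6 had 57 counts in CK and a ratio of 9.77. The same CK sum and a ratio of 9.40 were found for gene model 1 of scaffold 63695. Gene model 29 of scaffold 45, with 12, 12 and 32 counts in CK, had a ratio of 13.4, and its CK replicate 3 was the highest at 1.55 CPM. None of these 5 genes was at 0 in any CK library. In each the lowest salt stress library lay above the highest CK library, which the limits of the rule require of every switched-on gene.

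**Figure D3:**
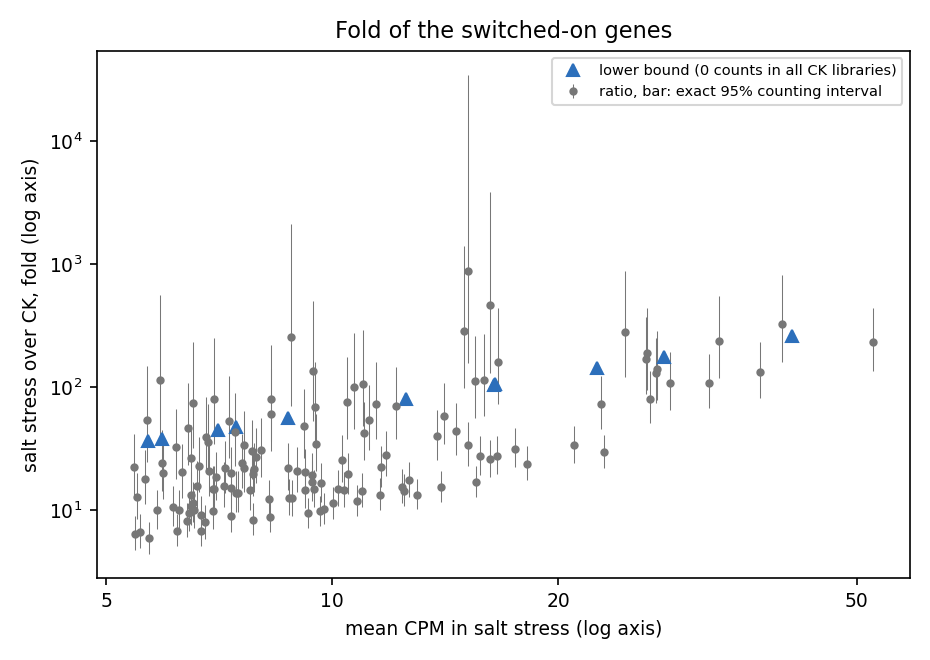
Salt stress over CK (log axis) against the mean salt stress level (log axis) for the 143 switched-on genes. Grey points are ratios of scaled counts with exact 95% counting intervals, from 5.90 to 878, and blue triangles are lower bounds for the 11 genes with 0 counts in CK, from 36.3 to 262.

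The 3 salt stress libraries gave closely similar values for nearly all of the genes. The coefficient of variation (CV, SD over mean) between them had a median of 7.86%, while counting alone gives a median of 8.10% at these counts. For 64 of the 143 genes the CV was below the counting value. The chi-square per degree of freedom against counting noise had a median of 1.11, beside 1.38 over all tested genes. This measure depends on the counts, and the median salt stress levels were 9.18 and 22.8 CPM, so these medians do not show steadier genes. The highest library exceeded the lowest by a factor with a median of 1.17, and by over 1.5 in 2 genes. It was replicate 1 for 55 genes, replicate 2 for 46 and replicate 3 for 42. The rule asks for 5 CPM in each of these libraries and thereby leaves out genes high in only 1 of them.

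Gene model 21 of scaffold 95 was the exception. It had 102, 98 and 320 counts in salt stress, or 5.58, 6.32 and 20.1 CPM, and 0, 5 and 1 counts in CK. Its CV of 76.8% was the highest of the switched-on genes, and salt stress replicate 3 stood 3.61 times above replicate 1. Of the other genes, gene model 95 of scaffold 57 had the next highest CV with 24% and 6.07, 8.26 and 5.22 CPM in salt stress. Gene model 119 of scaffold 85 followed with 18.7% and 7.0, 5.16 and 7.49 CPM. The steadiest genes after gene model 60 of scaffold 64321 (CV 0.283%) were gene model 140 of scaffold 99 with 0.952% and gene model 631 of scaffold 3 with 1.05%. Values this close are tighter than counting noise, which gives 6.43% and 6.19% at their counts, and are the low end of what 143 genes show.

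The limits of the rule cut through a continuous range of values. Just inside the CK limit were gene model 6 of scaffold 9, gene model 977 of scaffold 6 and gene model 1 of scaffold 63695 with means of 0.999, 0.997 and 0.984 CPM in CK. Just outside it were gene model 141 of scaffold 59, gene model 14 of scaffold 9 and gene model 158 of scaffold 64472 with 1.02, 1.03 and 1.03 CPM. At the salt stress limit, the lowest library of gene model 29 of scaffold 13, gene model 712 of scaffold 6 and gene model 105 of scaffold 27 was at 5.03, 5.03 and 5.10 CPM. The lowest library of gene model 27 of scaffold 80, gene model 284 of scaffold 13 and gene model 27 of scaffold 84 was at 4.97, 4.91 and 4.90 CPM, and these genes were left out. Gene model 27 of scaffold 80, with 1, 0 and 2 counts in CK, was lower there than most of the genes chosen.

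Because the choice used all 6 libraries, the rule was also applied with the libraries of a replicate number held back, and the genes chosen from the other 4 were looked up in the pair not used. With replicate 1 held back, 151 genes were chosen, and 129 of them (85.4%) met both limits in the held-back pair. For replicate 2 these were 128 of 150 (85.3%), and for replicate 3 they were 132 of 154 (85.7%). Every chosen gene was higher in the held-back salt stress library than in the held-back CK library, with a smallest ratio of 3.72, 3.27 and 3.81 for the 3 pairs. The lowest held-back salt stress value was between 3.23 and 3.77 CPM, and the highest held-back CK value between 1.47 and 2.31 CPM. The scaling factors of the held-back libraries came from all 6. Since the libraries of a group lay close together, a gene chosen in 4 of them could hardly change direction in the held-back pair. These values thus show the spread at the limits and are no independent support for the contrast.

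The opposite pattern was rarer at the same limits. A mean under 1 CPM in salt stress with at least 5 CPM in each CK library was found for 29 genes. Their CK means ranged between 5.16 and 68.8 CPM with a median of 8.68 CPM, close to the 9.18 CPM that the switched-on genes reached in salt stress. The CV between CK libraries had a median of 6.62%. Genes already expressed in CK (a mean of at least 5 CPM) and past the thresholds as higher in salt stress numbered 767. They reached a median of 63.2 CPM in salt stress with a median log2 fold change of 1.43. These genes held far higher levels than the switched-on genes, whose rule caps the CK level.

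None of the *LlMADS* genes, the family of MADS-box transcription factors on which the study centres, was switched on. All 63 were found in the count table, and 10 had enough counts to be tested. Since 0.547% of all gene models were switched on, a count of 0 among 63 is what that share gives, and nothing particular to the family is read from it. Of the 63, 55 had a CK mean under 1 CPM, and among the 55 the highest mean in salt stress was 0.787 CPM, far from the limit of 5 CPM. None stood directly beside a switched-on gene, and the nearest was 5 places away.

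The switched-on genes were spread over 72 of the 868 scaffolds. A single gene lay on 42 of these scaffolds, and 9 scaffolds held 5 or more. Scaffold 26 held the most with 8 genes among its 732 gene models, followed by scaffold 12 with 6 among 767. The 8 on scaffold 26 fell at places 242, 257, 262, 278, 308, 329, 351 and 798. Thus 7 of the 8 lay between places 242 and 351, a grouping that was not tested. The 8 genes had salt stress means between 5.66 and 11.5 CPM and CK means between 0 and 0.948 CPM. The steps between them were mostly over 10 places. Among scaffolds with at least 50 gene models, scaffold 88 was densest, with 3 switched-on genes among 79, followed by scaffold 64321 with 2 among 57. The numbering is not complete, since 12285 numbers within the scaffolds have no gene model in the table, and places are therefore an order rather than a distance.

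Neighbouring pairs were few. Of the 143 genes, 4 (2.80%) stood directly beside another switched-on gene, in 2 pairs, while 0.814% of the tested genes that were not switched on had such a neighbour. Within 2 places the number was 9 (6.29%, against 1.58%), and within 5 places it was 16 (11.2%, against 3.81%). Most of the genes thus had no direct neighbour that met the rule, and for these shares no test was made. Neighbours that rose but fell outside a limit of the rule are not counted here and are described below. Genes expressed in CK and higher in salt stress had a neighbour of their own kind more often (136 of 767, 17.7%), but they are also more numerous. Reads shared between similar neighbouring copies were not examined, since the treatment of multi-mapping reads in the counting is not stated in the sources used here.

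The pairs differed in level within themselves. Gene model 238 of scaffold 64476 had 166, 148 and 121 counts in salt stress and 0 counts in every CK library, or 8.75 ± 1.01 CPM in salt stress (SD, n = 3), at least 55.8-fold above the floor. Gene model 237 of scaffold 64476 beside it had 123, 94 and 92 counts in salt stress and 6, 2 and 3 in CK. On scaffold 88, gene model 67 had 174, 165 and 171 counts in salt stress and 13, 4 and 6 in CK, and gene model 68 had 128, 86 and 126 in salt stress and 7, 1 and 3 in CK. In both pairs the counts of the paired genes were unequal, while the gap between their salt stress and CK libraries is set by the rule.

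Allowing gaps of up to 10 places, 4 stretches held 3 or more switched-on genes. These stretches and their inner genes were picked after their values had been seen. The most pronounced lay on scaffold 40, where gene models 349, 352, 356 and 359 fell within 11 places. They had 11 ± 1.24, 11 ± 0.159, 6.44 ± 0.658 and 52.5 ± 2.23 CPM in salt stress, against 0.260 ± 0.0965, 0.104 ± 0.0482, 0.131 ± 0.122 and 0.231 ± 0.103 CPM in CK (SD, n = 3 each). Of the 7 other gene models between them, 3 passed the count filter. These had 3 or fewer counts over the CK libraries and passed through their salt stress counts alone, so that they had to be higher, and their values are given without a test.

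Among these 3, gene model 351 missed the rule by a single library. It had 6.45, 8.26 and 4.84 CPM in salt stress and 1, 0 and 2 counts in CK, a ratio of 125 (exact 95% interval 42.4 to 610). Gene model 354 had 38, 28 and 32 counts in salt stress and 1, 1 and 0 in CK. Gene model 355 had 17, 13 and 11 counts in salt stress and 0, 2 and 1 in CK. Beyond its far end the levels were alike. Gene model 361, transcribed at 117 CPM in salt stress and 112 CPM in CK, had a log2 fold change of 0.05 (edgeR adjusted p = 0.228). On the near side gene model 348 was already transcribed in CK and rose to 62.4 ± 2.75 CPM in salt stress, against 18.4 ± 1.29 CPM in CK (SD, n = 3 each; edgeR adjusted p = 1.51e-25).

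In the other stretches, the gene models between the switched-on ones were unlike them. On scaffold 88, gene model 69 lay between the switched-on 68 and 70 and had 36.3 CPM in salt stress and 27.2 CPM in CK, with a log2 fold change of 0.42 (edgeR adjusted p = 3.96e-07), short of the threshold of 1. On scaffold 29, gene model 53 between the switched-on 52 and 54 had 23.5 CPM in salt stress and 22.9 CPM in CK (edgeR adjusted p = 0.682). Gene model 50 in the same stretch fell to 36.4 CPM in salt stress, against 126 CPM in CK (log2 fold change -1.79, edgeR adjusted p = 3.69e-30). On scaffold 64487, the switched-on gene models 196, 199 and 201 reached 15.2 ± 1.5, 16.6 ± 1.83 and 26.2 ± 1.47 CPM under salt stress (SD over 3 libraries). The only other gene model the table holds between them had 0, 0 and 2 counts in salt stress and none in CK. In these stretches switched-on genes stood among genes with a small rise, a nearly equal level, a fall or almost no counts under salt stress.

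**Figure D4:**
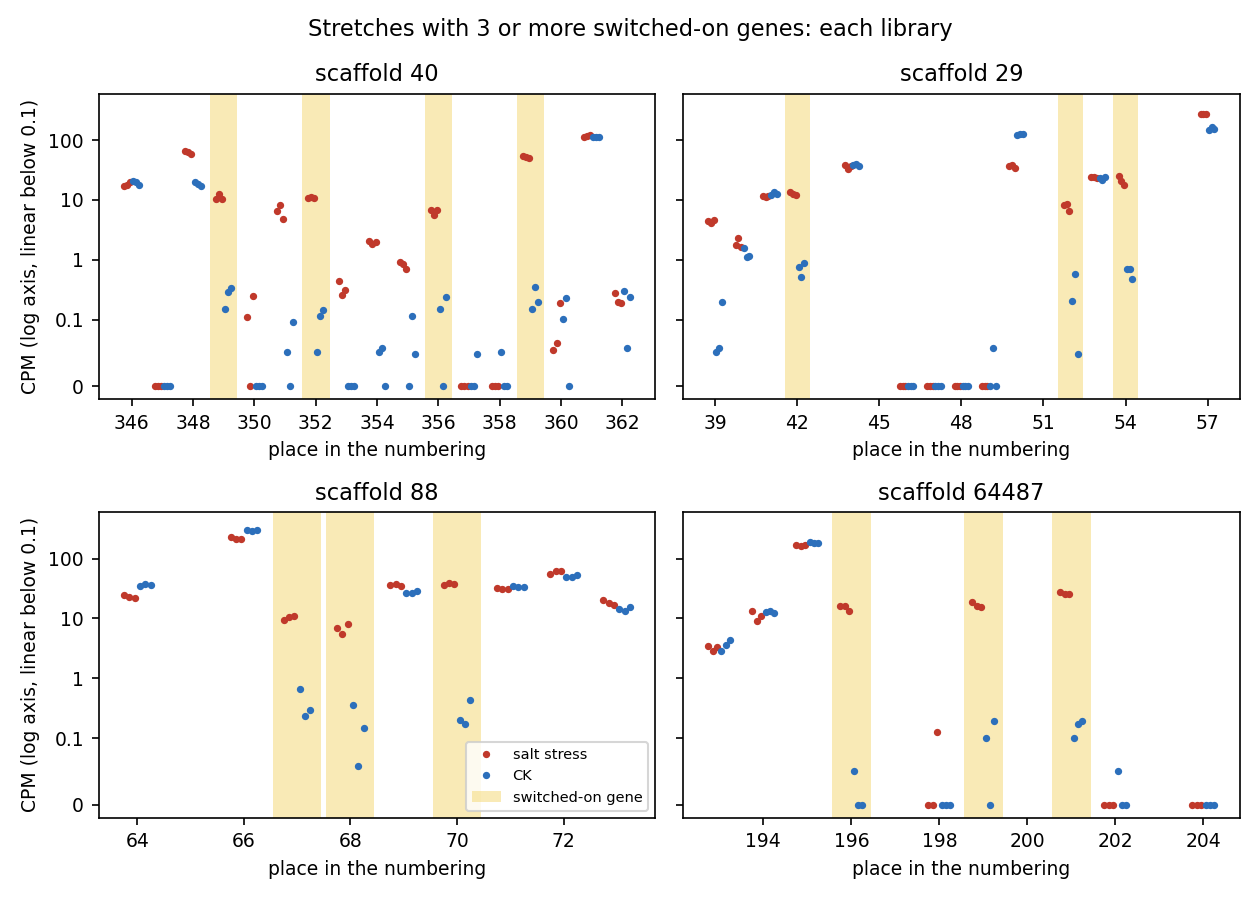
CPM in each library (log axis, linear below 0.1) by place in the numbering for the 4 stretches with 3 or more switched-on genes, salt stress in red and CK in blue, switched-on genes shaded. On scaffold 40 salt stress lies above CK for most of the detected gene models between places 349 and 359. Between the shaded genes stand a gene slightly higher in salt stress on scaffold 88, and genes with nearly equal or lower values on scaffold 29.

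The genes beside the switched-on ones were chosen by their place, except that neighbours meeting the rule themselves were left out. This exclusion used their own values and removed only genes higher in salt stress. The changes of the remaining neighbours were tested gene by gene under that limit. Among the shares given for comparison, those without the switched-on genes leave out genes in the same way. There were 199 gene models directly before or after a switched-on gene that were not switched on themselves, and 146 of them had enough counts. Of the 146, 24 (16.4%) were past the thresholds as higher in salt stress and 7 (4.79%) as lower, read against 12.1% and 7.12% of all tested genes and, without the switched-on genes themselves, 11.4% and 7.18%. At 2 places the shares were 13.1% higher and 5.84% lower, of 137 genes. Between 3 and 5 places they were 9.23% and 6.73%, of 401 genes, and over 20 places 10.3% and 7.29%, of 11523 genes. The direct neighbours had a median change of 0.16 on the log2 scale, and all tested genes had one of -0.0032. On scaffolds without a switched-on gene, 15.3% of 4016 genes were higher and 6.87% lower. These include most of the short scaffolds, where more genes were higher. The share was 27.2% of 467 genes with 1 to 4 gene models on the scaffold, and 26.6% of 760 with 5 to 49. The class without a switched-on gene was not split by scaffold size, so it is not a like comparison for the neighbours. No difference between the shares by distance was tested, and the share at 2 places was near the background. With library totals alone in place of TMM, which lowers the median change of all genes to -0.18 on the log2 scale, 22 neighbours were higher and 7 lower, beside 1856 higher and 1816 lower genes in all (2195 and 1287 with TMM).

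**Figure D5:**
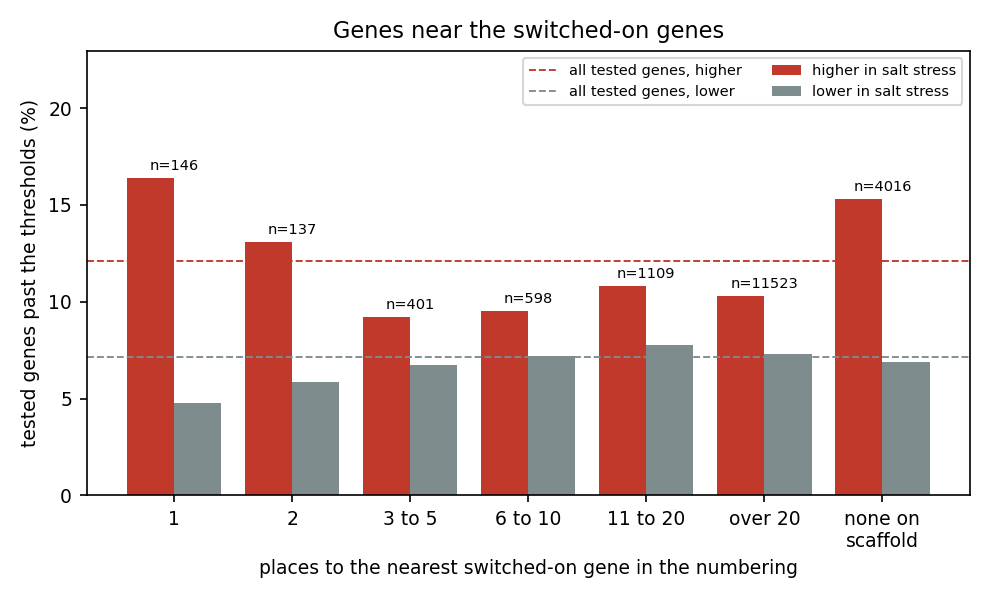
Share of tested genes past the thresholds (vertical, %) by their distance in places from the nearest switched-on gene, red for higher and grey for lower in salt stress, with n the number of tested genes. Dashed lines give the shares over all tested genes, 12.1% and 7.12%. Directly beside a switched-on gene the shares are 16.4% and 4.79%, and on scaffolds without one they are 15.3% and 6.87%. Scaffolds without one include most of the short scaffolds, where more genes were higher in salt stress.

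Under 1 CPM in CK were 13 of the 146 tested neighbours, and 11 of these were higher in salt stress. Of the near-silent tested genes elsewhere, 718 of 1146 were higher. A gene this low in CK mostly passes the count filter through its salt stress counts, so these numbers are partly set by the filter. Among the 133 neighbours with a CK mean of at least 1 CPM, a split made after the values were seen, 13 (9.77%) were higher and 7 (5.26%) lower, against 7.87% and 7.43% of 16638 such genes elsewhere.

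The neighbours with the highest fitted changes were all near silent in CK, where a fitted change gives no order, and are described without a test. Gene model 799 of scaffold 26 had 30, 18 and 16 counts in salt stress and 0 in CK, at least 8.10-fold above the floor. It stands beside the switched-on gene model 798 of scaffold 26, which had 132, 110 and 108 counts in salt stress and likewise 0 in CK. Gene model 654 of scaffold 0 had 16, 13 and 11 counts in salt stress and 0 in CK, at least 5.12-fold above the floor. Gene model 351 of scaffold 40, with its ratio of 125, is described with its stretch.

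A neighbour at a much higher level, named after its values were seen, was gene model 16 of scaffold 64407. It had 195 ± 3.48 CPM in salt stress and 2.51 ± 0.750 CPM in CK (SD, n = 3 each). The log2 fold change was 6.29 ± 0.078 (SE; edgeR adjusted p = 2.26e-38). Its 58, 51 and 34 counts in CK were above the limit of the rule. It stood next to gene model 17 of the same scaffold, which had 0 counts in CK. In gene model 16 too, which the rule did not choose, all 3 salt stress libraries were far above all 3 CK libraries.

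Neighbours also fell. The lowest was gene model 272 of scaffold 98, which fell to 9.02 ± 0.498 CPM in salt stress, against 37.5 ± 1.41 CPM in CK (SD, n = 3 each; log2 fold change -2.06 ± 0.081, SE; edgeR adjusted p = 1.32e-24). It lies beside the switched-on gene model 273 of scaffold 98. Gene model 162 of scaffold 64486 followed with a log2 fold change of -1.71 (edgeR adjusted p = 2.09e-16), and gene model 480 of scaffold 3 with -1.39 (edgeR adjusted p = 1.11e-17). Having been picked as direct neighbours, each of the 3 adjoins a switched-on gene.

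Most neighbours of the switched-on genes were detected in CK. Of the 199 direct neighbours, 15.1% had 0 counts in every CK library, against 19.8% of all gene models that were not switched on. The tested neighbours had a median of 28.6 CPM in CK, against 23.0 CPM over all tested genes that were not switched on. Under 1 CPM in CK were 8.90% of the 146 tested neighbours, against 6.44% of the 17784 other tested genes that were not switched on. At 2 places the median was 18.3 CPM in CK. These values point in different directions, and none of the differences was tested.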

How the data were processed

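Leaf RNA of 3 salt stress and 3 CK libraries was analysed, with groups and replicate numbers from the sample titles. The authors checked reads with FastQC, aligned them with HISAT2 and counted them per gene model with featureCounts, and the deposited values are raw counts. How strand and multi-mapping reads were treated is not stated. The paper and the sample records name different RNA kits. All columns were assigned (0 left over).

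In R 4.3.3 with edgeR 4.0.16, gene models were filtered by filterByExpr (minimum count 10) and scaled by TMM over the filtered counts. The rule for switched-on genes was applied to the scaled CPM. A robust quasi-likelihood fit on condition over all 18073 genes, with Benjamini-Hochberg adjustment, gave the calls for neighbours. Standard errors are the log2 fold change over the root of F. Floors are 3 counts per library, and ratio intervals are exact binomial intervals at 95%. The fit was tested on simulated data. DESeq2 1.42.0 and limma 3.58.1 (voom) were alternatives.

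The members and lists were chosen with earlier results of these data known. The genes named were the 10 highest in salt stress, the 5 largest bounds, the 5 largest CK sums, the 3 highest and 3 lowest CVs, neighbouring members, the 3 nearest each limit, and the 3 neighbours with the highest and the lowest change. Names outside this rule were added after seeing values. P-values set the difference between the groups against the spread between these libraries, which was small (edgeR common coefficient of variation 3.6%). How far this spread covers differences between plants was not tested.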

Additional observations from a re-analysis of the deposited data

How the results depend on the processing

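The number of switched-on genes was between 139 and 153 with a library left out and stayed within 1.5 times 143 under every scaling, without the filter, and with the mean or single-library forms of the limits. The limits themselves moved it. It was 90 with a CK limit of 0.5 CPM, 265 with 2 CPM, 302 with a salt stress limit of 2.5 CPM and 51 with 10 CPM. The genes of the mirrored rule numbered 10, 79, 79 and 11 under the same limits, against 29, and between 25 and 32 with a library left out. Switched-on genes beside another numbered 8, with either looser limit, and 0 with 10 CPM, against 4, between 4 and 6 with a library left out, and 9 and 16 within 2 and 5 places. Counted over the gene models the table holds, skipping missing numbers (added after seeing the data), they were 6.

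The median salt stress level was 8.85 CPM with total counts alone and between 8.58 and 9.17 CPM with a library left out. The median CV was between 6.05% and 7.94%, lower when only 2 salt stress libraries enter it. The largest fold bound, 262, was 263 with median of ratios, 254 with the upper quartile, 231 with total counts and 259 without the filter. In held-back pairs, 85.5% met both limits on average by replicate number, and 85.4% over all 9 pairs.

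Higher and lower neighbours, 24 and 7, were 42 and 15 within 2 places and 79 and 42 within 5, by construction, between 24 and 27 and between 7 and 8 with a library left out, 36 and 7 without the filter, and 13 and 7 among neighbours with a CK mean of at least 1 CPM (added after seeing the data). DESeq2 and limma voom gave 24 and 7. Of all calls, 63% were higher with TMM and 50.5% with total counts alone. With the replicate number as a block they were 24 and 7, and the calls over all genes were 2194 and 1297. Deviations of equally numbered libraries correlated at 0.05, -0.02 and 0.01, and those of unequally numbered ones at between -0.07 and 0.06. No pairing by number was seen, but 3 libraries per group with a small spread cannot exclude it. No *LlMADS* gene was switched on under any scaling or without the filter. Low counts in CK limit every ratio above.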

Other observations

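Short scaffolds held more genes that were higher in salt stress. On scaffolds with 1 to 4 gene models 27.2% of 467 tested genes were past the thresholds as higher, and on those with 5 to 49 gene models 26.6% of 760 were, against 10.7% on scaffolds with 50 or more but under 200 and 11.2% on scaffolds with 200 or more gene models. Switched-on genes numbered 7 and 2 on the short scaffolds and 38 and 96 on the long ones, or 1.5%, 0.263%, 0.95% and 0.747% of the tested genes. The 7 genes on the shortest scaffolds had between 6.25 and 9.28 CPM in salt stress and between 0.289 and 0.984 CPM in CK, and 5 of them were the only gene model of their scaffold. What sets the short scaffolds apart was not tested.

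On 2 of the short scaffolds the neighbours had nearly the same counts, a pair named after its values were seen. Gene model 1 of scaffold 63935 had 1244, 986 and 1068 counts in salt stress and 220, 182 and 219 in CK. Gene model 2 of scaffold 64309 had 1227, 963 and 1058 in salt stress and 217, 185 and 212 in CK. Their switched-on neighbours, gene model 2 of scaffold 63935 with 113, 102 and 95 counts and gene model 1 of scaffold 64309 with 133, 114 and 142 counts in salt stress, were less alike. Among the switched-on genes the closest profiles were those of gene model 675 of scaffold 27 and gene model 201 of scaffold 64487, which differed by 1.57% of their summed counts. Whether such pairs are copies or share reads was not tested.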
